A study of Mus musculus with 8 samples.

Results

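The genes described here carry out N-glycosylation in the endoplasmic reticulum (ER): they build the lipid-linked glycan, transfer it to new proteins and trim it. The set has 31 genes, chosen by symbol from the 21759 genes of the count table, and all 31 were found and tested. They were measured by bulk RNA sequencing of kidney from a knock-in mouse model of MUC1 kidney disease. Groups were 4 males that received saline (vehicle) and 4 that received BRD4780, a small molecule, daily over 7 days at a dose of 50 mg/kg. All were 8 months old. The titles call the treatment AGN50. All 8 mice carry the disease model, so the comparison is of treatment within the model, and no mouse without it was analysed here. The labels do not say how the knock-in allele was made, which cells express it or whether animals were littermates.

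N-glycosylation starts on the cytosolic face of the ER, where sugars are added one after another to the lipid carrier dolichol phosphate. The glycan is then flipped into the lumen, extended by mannosyl- and glucosyltransferases that draw on dolichol-linked sugars, and moved as a block onto asparagine residues by the oligosaccharyltransferase. Glucosidases and a mannosidase then trim it while the protein folds, and UGGT1 puts a glucose back on proteins that are still misfolded. Kidney tubule cells make large amounts of N-glycosylated transporters, receptors and secreted uromodulin, and mucins such as MUC1 carry N-glycans beside their many O-glycans. Loss of function in many of these genes causes congenital disorders of glycosylation, and PRKCSH, GANAB and several ALG genes are known from polycystic kidney or liver disease in people.

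Promoter sequences of 3 genes are shown. Stt3a and Stt3b, the alternative catalytic subunits of the oligosaccharyltransferase, are compared with each other below, and Alg12 was the 1 member with a complete ER stress element. The sequences come from RefSeq on GRCm38.p6, which held promoters for 26 of the 31 members. They give the 250 bases before the annotated start, 5′ to 3′. Capitals mark CCAAT and CCACG on either strand, the outer parts of the ER stress element.
Stt3a promoter, chr9:36767623-36767872, minus strand: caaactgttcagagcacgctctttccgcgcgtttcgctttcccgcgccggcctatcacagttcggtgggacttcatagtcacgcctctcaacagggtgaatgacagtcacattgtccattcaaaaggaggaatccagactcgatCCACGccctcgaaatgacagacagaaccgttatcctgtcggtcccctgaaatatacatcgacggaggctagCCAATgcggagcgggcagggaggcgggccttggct
Stt3b promoter, chr9:115310469-115310718, minus strand: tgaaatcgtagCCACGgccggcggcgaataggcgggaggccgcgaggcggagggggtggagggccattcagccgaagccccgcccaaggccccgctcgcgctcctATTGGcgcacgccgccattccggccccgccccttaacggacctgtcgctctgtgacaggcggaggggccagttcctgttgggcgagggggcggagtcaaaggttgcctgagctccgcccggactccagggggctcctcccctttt
Alg12 promoter, chr15:88819319-88819568, minus strand: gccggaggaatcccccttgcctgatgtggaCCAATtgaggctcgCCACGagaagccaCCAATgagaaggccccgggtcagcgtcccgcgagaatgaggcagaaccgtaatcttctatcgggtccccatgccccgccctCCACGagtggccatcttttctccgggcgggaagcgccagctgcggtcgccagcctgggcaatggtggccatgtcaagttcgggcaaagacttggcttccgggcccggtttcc

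In Alg12, a mannosyltransferase gene of the ER lumen, the marked letters at positions -220 to -202 form the whole element, which is CCAAT, 9 bases of any kind and CCACG. It was in 1 of 26 member promoters and in 0.122% of 27025 promoters of the same length. In the promoters of Stt3a and Stt3b CCAAT and CCACG were present but not at that spacing. CCAAT was found in 12 of 26 member promoters and in 34.5% of all promoters, and CCACG in 8 of 26 and in 28.2%. None of the 26 held ATTGG and CCACG with 1 base between them (0.0333% of all promoters), TGACGTGG (0.503%), TGATGNAA (3.53%) or TGACGTCA (1.62%), the letters of other ER stress, ATF4 and CREB elements. These searches covered both strands, and CCAAT and CCACG lie within the longer element. A match or its absence describes these letters in these windows only.

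With BRD4780, 0 of the 31 genes passed the test in either direction, and most lay close to the vehicle level. The test was edgeR's quasi-likelihood test with Benjamini-Hochberg adjustment over 13474 genes at a threshold of 0.05, which called 2.30% of all genes higher and 0.623% lower. The lowest adjusted p among the members was 0.10 (Dpm3). DESeq2 and limma-voom also called 0 of 31. At an unadjusted p under 0.05 there were 7 members (22.6%), against 24.6% of all genes, so the members' share was near the background. Of these, 2 had higher values (6.45%, against 13.9% of all genes) and 5 lower values (16.1%, against 10.7%). Their log2 fold changes ranged from -0.34 (Tusc3) to 0.40 (Alg6), with a median of -0.05 against 0.0097 over all genes tested. The sign was negative in 19 members (61.3%), against 48.4% of all genes tested.

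The intervals were narrow for most of these genes. In 27 of 31 (87.1%) the 95% interval of the fold change lay within 1.5-fold in both directions, against 57.6% of all genes tested. The 4 exceptions were Alg13, Alg6 and Stt3a, whose intervals reached above 1.5-fold higher, and Tusc3, whose interval reached below 1.5-fold lower. Variation within the groups was small: the median coefficient of variation over members was 5.66% with vehicle and 8.73% with BRD4780, against 10.0% and 14.6% over all genes tested. Neither comparison was matched for expression level. The lowest count in a library was 29 among the members and 0 among all genes tested.

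**Figure D1:**
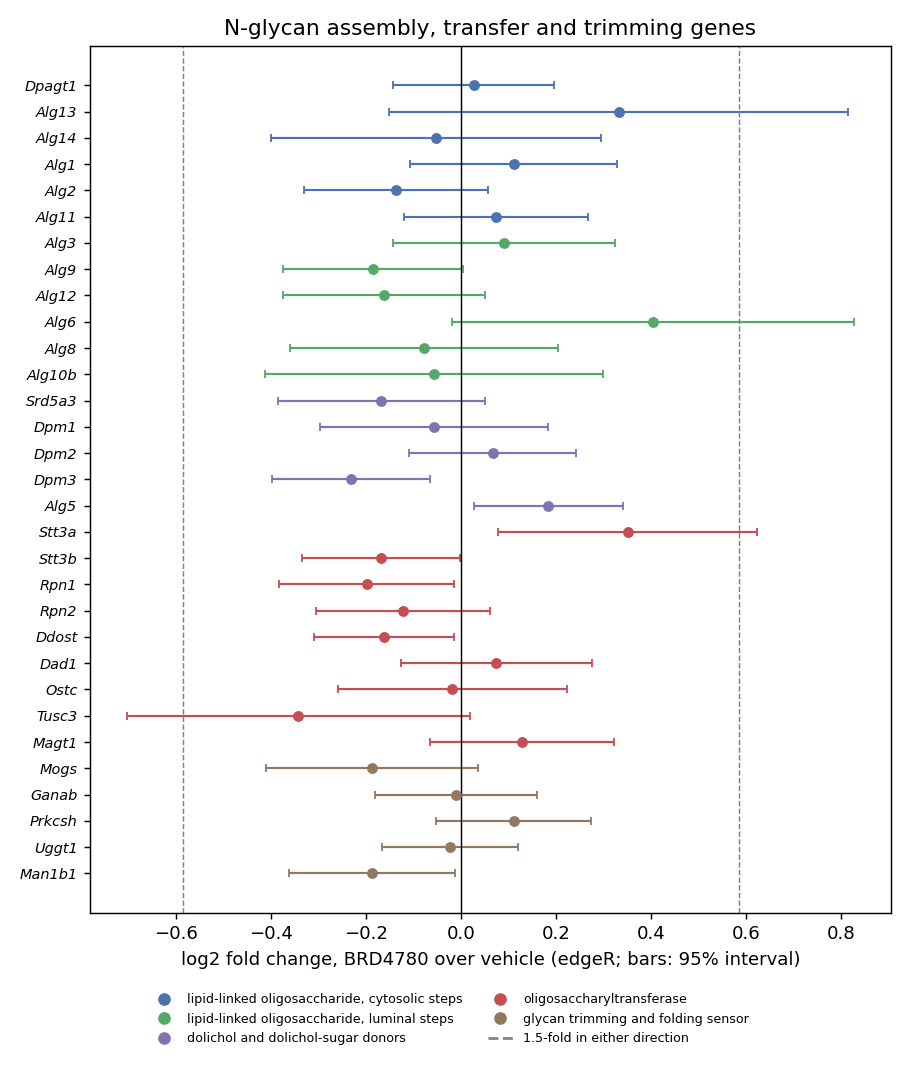
Log2 fold change of each of the 31 genes, BRD4780 over vehicle (x axis), with its 95% interval from edgeR, coloured by role; dashed lines mark 1.5-fold in either direction. Of the 31 intervals 27 lie between the dashed lines, and those of Alg13, Alg6, Stt3a and Tusc3 cross 1.

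Libraries held 5.74 to 28.5 M estimated counts, the shallowest being BRD4780 replicate 4, and each member had at least 29 counts in every library. BRD4780 replicate 3 stood apart from the other treated mice. On the first principal component of the 1000 most variable genes, which held 39.2% of their variance, it lay at -3.49, between the vehicle libraries (-21.2 to -12.3) and the other BRD4780 libraries (16.8 to 32.9). Without it the same test called 12.1% of all genes higher and 11.3% lower, so members that passed the test only without it are given both ways, as are those whose groups then came apart in the per-library accounts below. It was the treated library nearest the vehicle libraries on that component, so leaving it out widens the difference between groups by itself. Calls made only without it are therefore a description and no separate support. No label sets this mouse apart from the others of its group.

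Tissue markers showed kidney in every library: 10 proximal tubule genes summed to 14847 to 15694 CPM with vehicle and 11757 to 18650 CPM with BRD4780, the highest being BRD4780 replicate 3. CPM are counts scaled to library totals that were adjusted by the trimmed mean of M-values (TMM). Cell type markers differed between the groups. Of 6 podocyte markers 2 passed the test as higher (sum 58.9 to 136.9 CPM with vehicle, 193.9 to 292.1 with BRD4780). In all 6 every treated mouse lay above every vehicle mouse, against 7.44% of all genes tested. Of 8 endothelial markers 3 passed as higher (143.6 to 259.04 against 290.2 to 369.8 CPM). All 8 had positive fold changes, and 4 lay apart in the same way. Of 6 thick ascending limb markers 2 passed as lower (3041 to 4112 against 1992 to 3231 CPM), and all 6 had negative fold changes. Of 4 distal convoluted tubule markers 1, Trpm6, was higher (sum 555 to 819 against 720 to 1083 CPM). In the principal cell, intercalated cell and fibroblast lists 0 genes were called. Their sums overlapped between groups (603 to 944 against 400 to 857, 234 to 257 against 208 to 294, and 97.9 to 124 against 111 to 140 CPM). Erythrocyte markers summed to 477 to 1576 CPM with vehicle and 154 to 782 CPM with BRD4780, over the 3 of 5 listed genes in the table. The absent ones are the beta-globin genes Hbb-bs and Hbb-bt. Adipocyte markers summed to 6.27 to 38.0 and 0.376 to 12.8 CPM, and 0 genes were called in either list. Markers of B and plasma cells, which are rich in this machinery, summed to at most 7.75 CPM in any library, with 5 of the 6 listed genes in the table. Macrophage markers (5 of 6 in the table) summed to 94.2 to 241 CPM over all libraries and T cell markers (4 of 5) to at most 3.87 CPM. In a list of 6 liver genes, 1 (Ahsg) was at 0 in every library, and no gene of the kidney, endothelial and blood cell lists that is in the table was. Their part in the results below was not tested, and in bulk tissue fewer cells of a type and less RNA per cell cannot be told apart.

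Levels between genes were compared per kilobase of the longest coding transcript. The non-catalytic subunits Rpn1 and Rpn2 (ribophorins I and II) and Ddost (OST48) led with Prkcsh and Ganab, the beta and alpha subunits of glucosidase II. Rpn1 stood at 100.4 ± 3.2 CPM per kb (SD, n = 4) with vehicle and Rpn2 at 95.7 ± 7.0 (SD, n = 4), which do not differ beyond their spread. Ddost, Prkcsh and Ganab followed at 84.4 ± 2.3, 82.5 ± 4.8 and 82.2 ± 4.1 CPM per kb (SD, n = 4 each), also within their spread of each other. On this scale Stt3b at 44.1 ± 2.9 and Dpm3 at 43.7 ± 2.0 CPM per kb came next (SD, n = 4 each). With the median length of coding transcripts Dad1 (63.03) and Dpm3 (58.7) stood above Stt3b (44.1). The genes of the cytosolic and luminal steps were all lower than these, with Alg10b (1.39 ± 0.09 CPM per kb), Alg6 (1.79 ± 0.31), Alg13 (3.002 ± 0.53) and Alg14 (3.83 ± 0.65; SD, n = 4 each) at the bottom. With median lengths Alg13 stood at 8.96 and Alg14 at 6.29, above Alg11 (4.93), while Alg10b and Alg6 stayed lowest. Among the genes of the cytosolic and luminal steps Alg1, which adds the first mannose, was the highest at 23.3 ± 2.6 CPM per kb (SD, n = 4). Alg5 and Dpm1, transferases that make the dolichol-linked sugars, stood higher, at 36.0 and 31.6 CPM per kb with their longest transcripts. The level of Stt3a depends on the length used: it was 19.8 CPM per kb with its longest transcript and 37.8 with the median length of its coding transcripts.

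**Figure D2:**
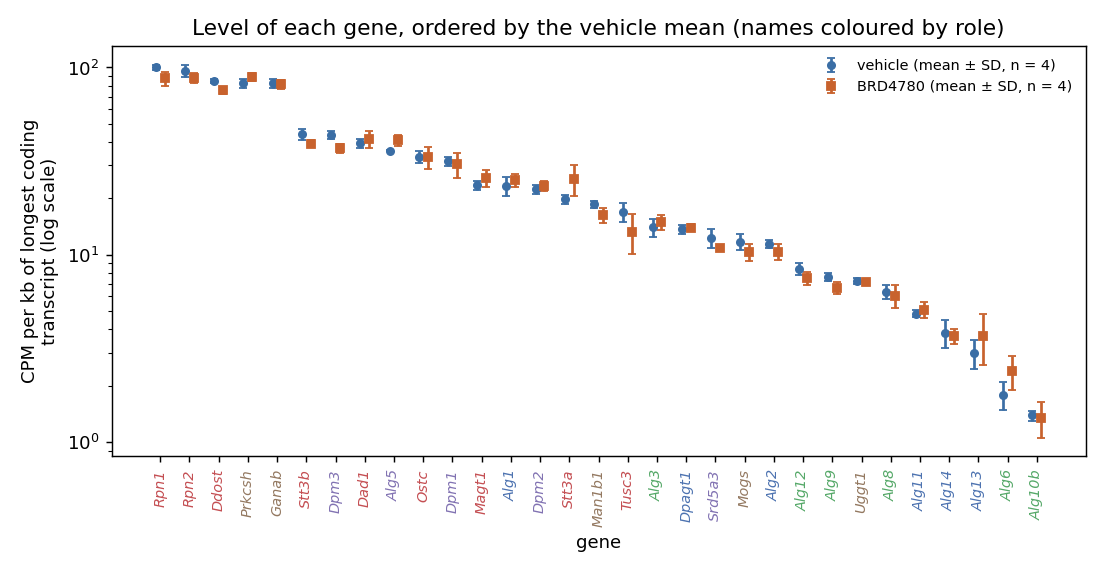
Mean ± SD (n = 4 per group) of CPM per kb of the longest coding transcript (log scale) for the 31 genes, in the order of their vehicle means, with names coloured by role as in the plot of fold changes. Rpn1 is the highest at 100.4 and Alg10b the lowest at 1.39 with vehicle. On the log scale the vehicle and BRD4780 points of most genes lie close together. Wider differences include Stt3a (19.8 with vehicle, 25.3 with BRD4780), Alg6 (1.79 and 2.39), Alg13 (3.002 and 3.71) and Tusc3 (16.9 and 13.3).

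Among the 6 genes of the cytosolic steps none passed the test, and the groups overlapped in all 6. Dpagt1, which starts the glycan with N-acetylglucosamine phosphate and is the target of tunicamycin, averaged 30.2 ± 1.6 CPM in vehicle mice and 30.8 ± 1.4 CPM in treated mice (SD, n = 4 each). Its log2 fold change was 0.03, with a 95% interval of -0.14 to 0.20. Alg2, which adds mannose, was at 36.8, 34.03, 34.0 and 33.3 CPM in vehicle replicates 1 to 4 and at 27.1, 32.4, 33.8 and 32.5 CPM in BRD4780 replicates 1 to 4. Of the treated mice only BRD4780 replicate 3 lay within the vehicle range, with BRD4780 replicate 1 farthest under it, and the adjusted p was 0.35 (edgeR), or 0.18 without that library. Alg13, the catalytic partner that Alg14 anchors to the membrane, read 4.56, 5.01, 5.30 and 6.77 CPM with vehicle and 9.48, 6.81, 5.60 and 4.85 CPM with BRD4780. BRD4780 replicates 3 and 4 lay within the vehicle range, replicate 2 just above it and replicate 1 well above, and the log2 fold change of 0.33 ± 0.22 (SE) had an adjusted p of 0.37 (edgeR). Alg14, Alg1 and Alg11 had log2 fold changes of -0.05, 0.11 and 0.07.

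Of the 6 luminal transferases none passed the test either. Alg9, a mannosyltransferase gene, was at 22.4, 22.7, 22.2 and 20.3 CPM with vehicle and 19.4, 19.6, 20.4 and 17.1 CPM with BRD4780. BRD4780 replicate 3 alone reached the vehicle range, just above vehicle replicate 4, and the log2 fold change was -0.19 ± 0.09 (SE; adjusted p = 0.21), or -0.22 without that library (adjusted p = 0.11). Alg6, which adds the first glucose, read 4.85, 4.75, 5.72 and 6.77 CPM with vehicle and 8.94, 6.78, 5.52 and 8.199 CPM with BRD4780. All treated mice but BRD4780 replicate 3 lay above the vehicle range, by a narrow margin in BRD4780 replicate 2 (log2 fold change 0.40 ± 0.19 SE, adjusted p = 0.22). Without that library the value was 0.53 (adjusted p = 0.0574), still short of the threshold. Alg12, whose promoter is printed above, had a log2 fold change of -0.16 ± 0.10 (SE; adjusted p = 0.31). Alg3, Alg8 and Alg10b stood at 0.09, -0.08 and -0.06 on that scale.

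Dolichol and sugar donor genes held the lowest p of the set. Dpm3 anchors the catalytic subunit DPM1 of dolichol-phosphate-mannose synthase, and lies on chromosome 3 (89259358 to 89267079, plus strand, GRCm38). It was at 34.5, 38.4, 36.1 and 35.7 CPM with vehicle and at 29.5, 32.9, 30.9 and 29.5 CPM with BRD4780. Every treated mouse lay under every vehicle mouse, and the log2 fold change was -0.23 ± 0.07 (SE; adjusted p = 0.10). Alg5, the dolichol-phosphate-glucose synthase (chromosome 3, 54735539 to 54751318, plus strand), went the other way, from 53.0, 53.0, 52.4 and 53.6 CPM with vehicle to 57.9, 65.1, 56.2 and 61.7 CPM with BRD4780. Here every treated mouse lay above the vehicle mice, which were close together (log2 fold change 0.18 ± 0.07 SE, adjusted p = 0.15). Without BRD4780 replicate 3 the Alg5 value was 0.22 and its adjusted p 0.0477. Dpm1 and Dpm2, the catalytic and regulatory subunits, had log2 fold changes of -0.06 and 0.07, and Srd5a3, which reduces polyprenol to dolichol, -0.17 (adjusted p = 0.31).

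In the 9 oligosaccharyltransferase genes the catalytic subunits had fold changes of opposite sign. STT3A works with the translocon on proteins as they are made, and STT3B acts on sites that STT3A skips. Stt3a (chromosome 9, 36729344 to 36767679, minus strand) was at 115.0, 125.7, 112.2 and 111.7 CPM with vehicle and 122.5, 164.5, 127.4 and 179.9 CPM with BRD4780. Only vehicle replicate 2 reached into the treated range, above BRD4780 replicate 1, and BRD4780 replicates 2 and 4 were well above all others. The log2 fold change was 0.35 ± 0.12 (SE; adjusted p = 0.12), and 0.42 without BRD4780 replicate 3 (adjusted p = 0.0290). Without BRD4780 replicate 4, the library with the highest Stt3a value and the fewest counts, it was 0.25 (adjusted p = 0.27). Stt3b (chromosome 9, 115242581 to 115310421, minus strand) read 186.8, 201.1, 186.0 and 170.9 CPM with vehicle and 156.9, 163.01, 172.1 and 170.8 CPM with BRD4780. Its groups met at vehicle replicate 4 and BRD4780 replicate 3, with a log2 fold change of -0.17 ± 0.07 (SE; adjusted p = 0.20), or -0.19 without BRD4780 replicate 3 (adjusted p = 0.0915).

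The ratio of Stt3a to Stt3b within a library did not overlap between the groups. Per kilobase of the longest transcript it was 0.443, 0.450, 0.434 and 0.470 in vehicle replicates 1 to 4 and 0.562, 0.726, 0.532 and 0.758 in BRD4780 replicates 1 to 4. Vehicle mice were tightly grouped, and among treated mice replicate 3 had the smallest ratio, still above each vehicle mouse. The mean ratio was 0.449 ± 0.015 with vehicle and 0.644 ± 0.114 with BRD4780 (SD, n = 4 per group), 1.43 times the vehicle ratio, and 0.682 without BRD4780 replicate 3. With median transcript lengths, chosen after the data were seen, the means were 0.857 and 1.23, in the same proportion to each other. This is a description with no test. How often ratios of other gene pairs lie apart was not computed, while single genes lay apart in 12.6% of all genes tested. Neither Stt3a nor Stt3b lay apart alone. The deposited counts of Stt3a were not whole in 8 libraries and those of Stt3b in 7.

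Tusc3 and Magt1, alternative oxidoreductase subunits of the complex that holds STT3B, also had fold changes of opposite sign. Tusc3 was at 28.7, 28.2, 22.3 and 24.6 CPM with vehicle and 15.6, 18.9, 27.5 and 19.9 CPM with BRD4780. BRD4780 replicate 3 was inside the vehicle range and the other treated mice lay under it. Over all mice the log2 fold change was -0.34 ± 0.16 (SE; adjusted p = 0.22), and without BRD4780 replicate 3 it was -0.54 (adjusted p = 0.0118). Without BRD4780 replicate 1, which had the lowest Tusc3 value, it was -0.22 (adjusted p = 0.45). Magt1 read 103.0, 100.2, 112.4 and 109.5 CPM with vehicle and 125.3, 113.2, 100.7 and 126.0 CPM with BRD4780, a log2 fold change of 0.13 ± 0.09 (SE; adjusted p = 0.38), or 0.19 without BRD4780 replicate 3 (adjusted p = 0.0856). The ratio of Tusc3 to Magt1 per kilobase averaged 0.725 ± 0.121 with vehicle and 0.532 ± 0.190 with BRD4780 (SD, n = 4 per group). Its groups overlapped through BRD4780 replicate 3 (0.805), and the other treated mice (0.367 to 0.492) lay under the vehicle range.

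**Figure D3:**
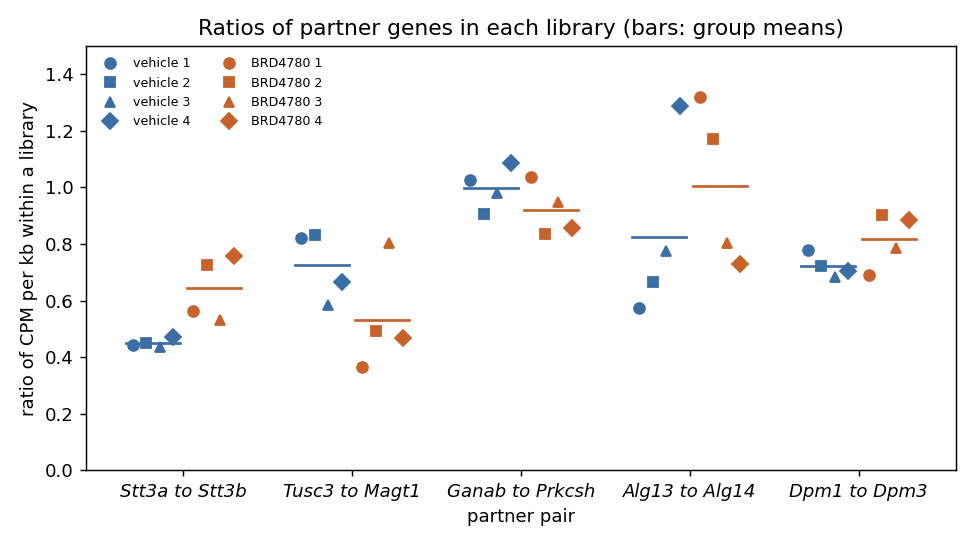
Ratio of CPM per kb between partner genes within each library (y axis) for 5 pairs, with points for the 8 libraries and bars for the group means. The Stt3a to Stt3b ratio is the 1 pair of 5 without overlap between groups (vehicle 0.434 to 0.470, BRD4780 0.532 to 0.758). It was not tested, and no share over other gene pairs was computed.

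The non-catalytic subunits had small differences between the groups. Ddost was at 184.5, 179.0, 179.8 and 172.9 CPM with vehicle and 166.3, 151.5, 163.7 and 158.3 CPM with BRD4780, so its groups lay apart (log2 fold change -0.16 ± 0.07 SE, adjusted p = 0.17). Rpn1, shown here after its values were seen, also lay apart, at 357.6, 381.7, 363.1 and 355.9 CPM with vehicle and 343.6, 280.3, 332.1 and 315.1 CPM with BRD4780 (log2 fold change -0.20 ± 0.08 SE, adjusted p = 0.18). Both are thus short of the threshold, as is Rpn2 (-0.12, adjusted p = 0.38, or -0.17 and 0.13 without BRD4780 replicate 3). Dad1 and Ostc, a small subunit of every complex and the subunit that docks the STT3A complex to the translocon, had log2 fold changes of 0.07 and -0.02, with intervals of -0.13 to 0.27 and -0.26 to 0.22.

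**Figure D4:**
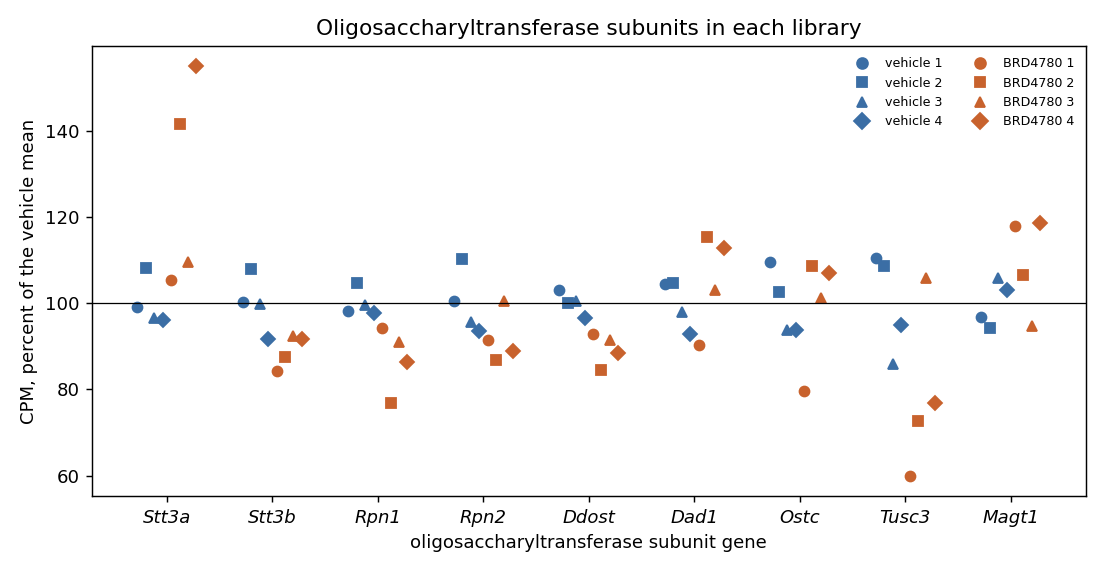
CPM of the 9 oligosaccharyltransferase genes in each library as a percent of the gene's vehicle mean (y axis), with blue points for vehicle and orange for BRD4780. Stt3a in BRD4780 replicates 2 and 4 (164.5 and 179.9 CPM) and Tusc3 in BRD4780 replicate 1 (15.6 CPM) are the points farthest from the vehicle mean.

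Of the 5 trimming genes none passed the test. Man1b1, the ER mannosidase gene (chromosome 2, 25332338 to 25352212, plus strand), was at 72.1, 68.0, 67.0 and 72.1 CPM with vehicle and 60.7, 57.1, 68.9 and 58.1 CPM with BRD4780. BRD4780 replicate 3 alone reached into the vehicle range, and the log2 fold change was -0.19 ± 0.08 (SE; adjusted p = 0.18), or -0.25 without that library (adjusted p = 0.0253). Mogs, glucosidase I, which removes the outermost glucose, read 29.6, 35.5, 35.4 and 30.5 CPM with vehicle and 27.4, 26.6, 33.0 and 27.8 CPM with BRD4780 (log2 fold change -0.19 ± 0.10 SE, adjusted p = 0.27). Again BRD4780 replicate 3 was the 1 treated mouse within the vehicle range, and without it the value was -0.27 (adjusted p = 0.0615). Uggt1, the folding sensor, gave the narrowest interval of the set's trimming genes, -0.17 to 0.12 around a log2 fold change of -0.02, at 65.6 ± 2.6 CPM in vehicle mice and 64.6 ± 1.4 CPM in treated mice (SD, n = 4 each). Ganab and Prkcsh stood at -0.01 and 0.11, and their ratio per kilobase at 0.999 ± 0.075 with vehicle and 0.918 ± 0.092 with BRD4780 (SD, n = 4 per group).

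Across the set the groups lay apart in 4 of 31 genes (12.9%), Alg5 higher and Dpm3, Rpn1 and Ddost lower, against 12.6% of all genes tested (7.44% higher and 5.16% lower). Without BRD4780 replicate 3 they lay apart in 13 (41.9%), 3 higher and 10 lower, against 34.4% of all genes (17.9% higher and 16.5% lower). The test then called 2 members higher (Stt3a and Alg5, 6.45%) and 2 lower (Tusc3 and Man1b1, 6.45%), under the 12.1% and 11.3% of all genes called without that library. Leaving out any of the other 7 libraries left 0 members called. Per library, the median of the 31 genes relative to the vehicle mean was between -0.05 and 0.07 (log2) with vehicle and between -0.09 and -0.0003 with BRD4780.

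Of 40 other genes of N-glycan synthesis and processing, 1 passed the test, Gmppa, a regulatory partner of the enzyme that makes GDP-mannose. Over all genes tested 2.92% passed in either direction, so 1 of 40 is near the background. Gmppa was at 36.4, 37.1, 34.3 and 34.5 CPM with vehicle and at 44.7, 48.1, 42.1 and 44.7 CPM with BRD4780. Every treated mouse lay above every vehicle mouse (log2 fold change 0.34 ± 0.07 SE, adjusted p = 0.0428). This call was lost when any library other than BRD4780 replicate 3 was left out (adjusted p between 0.0733 and 0.12). It was also lost in limma-voom with a block on numbers in the titles (0.0915). Gmppb, the catalytic partner, had a log2 fold change of 0.40 ± 0.12 (SE; adjusted p = 0.0869), or 0.42 without BRD4780 replicate 3 (adjusted p = 0.0359). Of the other oligosaccharyltransferase genes, Tmem258 stood at -0.21 (adjusted p = 0.17) and Krtcap2 at 0.20 (adjusted p = 0.28), or 0.31 without BRD4780 replicate 3 (adjusted p = 0.0138). In the calnexin cycle Calr (calreticulin) and Pdia3 were at -0.45 and -0.34 (adjusted p = 0.0589 and 0.0621). Both passed without BRD4780 replicate 3 (-0.44 and -0.36, adjusted p = 0.0161 and 0.0088) and with DESeq2 (adjusted p = 0.00157 and 0.00146). These 2 settings called more genes of any kind: 1537 and 505 genes lower, against 84 in the main fit. Of the Golgi genes the lowest p belonged to Mgat3, which adds the bisecting residue, at -0.54 ± 0.19 (SE; adjusted p = 0.12), and B4galt1, a galactosyltransferase gene, at 0.45 ± 0.16 (SE; adjusted p = 0.14). Without BRD4780 replicate 3 Mgat3 passed the test (-0.81, adjusted p = 0.000494). B4galt1 passed without vehicle replicate 4 (0.63, adjusted p = 0.0456), in a fit that called 176 of 13666 genes higher. That library held the highest B4galt1 value of the vehicle mice (109.7 CPM against 64.9 to 75.4 CPM). Leaving it out therefore raises the fold change by itself, and the pass is no separate support.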

How the data were processed

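Polyadenylated RNA from kidney slices of 8 mice was sequenced from stranded libraries, per the labels' protocols. The deposited values are expected counts (estimated read counts per gene), not normalized. Per the submitters' processing notes the tools were STAR 2.5.2b, RSEM 1.3.0 and Picard, and mm10 and hg19 were named as builds with no role stated. Which annotation and which strand setting were used for counting is not given in the sources. RSEM divides reads that fit several genes, and 5 of the 31 genes had whole counts in every library.

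Of 22121 lines, 343 symbols stood on several lines with identical values and were collapsed to 21759 genes. A column that matched none of the samples was not used (1 column). Counts were rounded, filtered with filterByExpr (minimum count 10), scaled by TMM and compared by the quasi-likelihood test of edgeR 4.0.16 (R 4.3.3) over 8 libraries without covariates. Unless a sentence names another tool, its adjusted p is from edgeR. An SE is |log2 fold change| over √F. The intervals (95%) use that SE and the test's degrees of freedom. Alternatives were RLE and upper-quartile scaling, no filter, DESeq2 1.42.0, limma-voom (limma 3.58.1) with and without a block, and leaving out each library. In pairwise chi-square tests of the counts the smallest statistic was 7.60 per degree of freedom, far above the sampling noise of 1 library counted again. Totals ranged from 5.74 to 28.5 M counts, and 3 counts correspond to 0.101 to 0.502 CPM.

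Members and lists were chosen with earlier results of these data known. Values in every library are given for the 2 members of each role with the smallest p, and also for Stt3b, Tusc3, Magt1 and Rpn1, chosen after their values were seen. The other compared pairs are given by their ratios or fold changes. Of the other pathway lists the 2 smallest p in each are named. Replicate numbers follow the order of deposition and pair nothing. The design text gives 4 mice per arm. Coordinates and lengths are from GENCODE M21 (GRCm38), where exons of 6 members overlap a gene on the opposite strand (Alg1, Alg3, Alg9, Rpn1, Rpn2 and Man1b1) and those of 2 a gene on the same strand (Dpm1 and Alg10b).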

Additional observations from a re-analysis of the deposited data

Results flagged for a closer look

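In 88 groups of 4 libraries, covering the 31 genes, 8 other named genes and 5 ratios, 2 held a library far from the other 3 by Dixon's criterion, and chance flags about 1 group in 20. Prkcsh in vehicle replicate 2 was at 199.6 CPM, against 177.3 to 180.3 CPM in the other vehicle libraries. Mgat3 in BRD4780 replicate 3 was at 139.7 CPM, against 71.8 to 81.7 CPM in the other treated libraries and 123.1 to 154.0 CPM with vehicle.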

How the results depend on the processing

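The count of members called was 0 in both directions under RLE and upper-quartile scaling, no filter, DESeq2, limma-voom with and without the block, and 7 of the 8 fits that left out a library. Leaving out libraries gave 0 to 2 members higher and 0 to 2 lower, 26 to 1647 genes higher and 5 to 1537 lower over all genes, and 0 to 4 and 0 to 11 for the other pathway genes. Over all genes DESeq2 called 850 higher and 505 lower, and limma-voom 204 higher. With a block on numbers in the titles limma-voom called 63 higher and 14 lower, and it left 0 other pathway genes higher. DESeq2 called 2 other pathway genes lower, Calr and Pdia3. The members' median log2 fold change of -0.05 ranged from -0.074 to 0.015 when libraries were left out. The log2 fold changes of 8 members near 0 changed sign when a library was left out: Dpagt1 (-0.0081 to 0.0556), Alg14 (-0.16 to 0.023), Alg8 (-0.13 to 0.0146), Alg10b (-0.18 to 0.0337), Dpm1 (-0.15 to 0.0334), Ostc (-0.0707 to 0.0767), Ganab (-0.0454 to 0.0213) and Uggt1 (-0.0448 to 0.0038). The cause was not tested. The block used the 2 numbers that titles of both groups share. Libraries sharing a number did not deviate together (correlations of -0.0097 and -0.30 over genes tested). The fit with the block used an estimated correlation of -0.34, which rests on these 2 numbers only. The labels do not say what the number marks, so no pairing was assumed. Depth limits the lowest members most, with 29 counts of Alg13 in a library.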

Other observations

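Without BRD4780 replicate 3, 4 of the 40 other pathway genes were higher (10.0%, against 12.1% of all genes) and 11 lower (27.5%, against 11.3%) by edgeR. This set of libraries was looked at after that library was seen to stand apart, and the genes named next were chosen after their values were seen. Among the lower genes were 4 of the 6 listed N-acetylglucosaminyltransferases of the Golgi, Mgat1, Mgat2, Mgat3 and Mgat4b, with log2 fold changes of -0.34, -0.39, -0.81 and -0.42 (adjusted p = 0.0429, 0.0271, 0.000494 and 0.00504). Mgat4a and Mgat5 had log2 fold changes of 0.34 and 0.12 (adjusted p = 0.31 and 0.79). Over all 8 libraries their values were -0.27, -0.30, -0.54 and -0.29, with adjusted p-values of 0.17, 0.14, 0.12 and 0.15, none past the threshold.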
